A study of Mus musculus with 4 samples.

Results

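Meg3 and the other imprinted genes of the hyaloid vessels were described as a set of 10 genes: Meg3, Rian, Mirg, Dlk1, H19, Igf2, Igf2r, Cdkn1c, Peg3 and Grb10. They were taken by symbol from a table of 32285 mouse genes, and the set was chosen by levels already seen in these data, in endothelial against pericyte wells and in shallow wells, so those levels are given as a description. All 10 had at least 1 unique molecular identifier (UMI, a tag that marks 1 captured RNA molecule) in the cells analysed, where 10829 genes did. The cells came from the vitreous bodies of mice at postnatal day 6, when the transient hyaloid vessels of the eye regress, and were measured by SORT-seq, in which cells are sorted into 384-well plates and each well's RNA is counted by UMIs at the 3′ end. Gpr124 fl/fl littermates, which carry the floxed Gpr124 alleles and no Cre, were compared with Gpr124 dEC/dEC littermates, which also carry VECad-Cre-ERT2, a tamoxifen-activated Cre under an endothelial (VE-cadherin) promoter. All pups received tamoxifen, the vitreous bodies of each genotype were pooled into 1 suspension, and each suspension filled 2 plates. By the labels, replicate 1 of each genotype was sorted for CD31 and replicate 2 for PDGFRB, and replicate 2 of the dEC/dEC genotype also received some cells of the CD31 gate. So each genotype is 1 sample, no test between genotypes was possible, and the intervals given below are exact 95% intervals that cover counting error only.

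Plates held 108059 UMIs of mouse genes in fl/fl replicate 1, 128082 in fl/fl replicate 2, 51972 in dEC/dEC replicate 1 and 174645 in dEC/dEC replicate 2. Of the 384 wells in each of 4 plates, 1478 in all held under 1000 UMIs after the plates were scaled to the highest plate median, 11 held over 8000, and 42 of the remaining 47 had a mitochondrial share under 10%. Of these 42 wells, 11 had Cldn5 and no Pdgfrb UMIs and are called endothelial wells here, and 21 had Pdgfrb and no Cldn5 UMIs and are called pericyte wells. A further 3 wells held both markers and 7 neither. Endothelial wells numbered 2, 3, 4 and 2 in fl/fl replicates 1 and 2 and dEC/dEC replicates 1 and 2. Pericyte wells numbered 6, 3, 0 and 12 in the same order, so every dEC/dEC pericyte came from 1 plate, and genotype, gate and plate cannot be told apart there. The classes did not follow the gates strictly: fl/fl replicate 1, sorted for CD31, held more pericyte than endothelial wells. The same 384 barcodes serve all 4 plates, and 10 of the 32 class wells share their barcode with a well of at least 1000 UMIs in another plate.

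The class names were checked against marker genes that did not define them. The other 14 endothelial markers summed to 119 UMIs per 10000 in endothelial wells and 15.8 in pericyte wells. The other 14 pericyte markers summed to 18.0 and 189 in the same order, with Rgs5 the most abundant at 723 UMIs in pericyte wells. Among endothelial wells they were highest in fl/fl replicate 1, at 36.9 per 10000 against 6.70 to 18.1 in the other plates. That level came from 23 UMIs, 10 of them Mcam, with 7 of the 14 markers detected. Among the 15 endothelial markers only Erg was at 0 in endothelial wells, and all 15 pericyte markers were detected in pericyte wells. Lens markers were at 0 in both classes. Macrophage markers summed to 1.29 UMIs per 10000 in endothelial and 1.99 in pericyte wells. Of 12 macrophage markers, 2 were detected in endothelial and 7 in pericyte wells, and Csf1r and Cd68 were at 0 in both. All 16 macrophage marker UMIs of the pericyte wells came from dEC/dEC replicate 2, at 3.31 per 10000. Of 8 fibroblast markers 2 were detected in pericyte wells, at 11.4 UMIs per 10000, nearly all of them Col1a2, and Pdgfra, Dcn and Lum were at 0. Gpr124 itself (Adgra2 in the table) had 2 and 1 UMIs in the endothelial wells of fl/fl replicates 1 and 2 and 0 in those of both dEC/dEC plates, among 15184 and 15864 UMIs in all. That difference was not detectable at this depth, and a 3′ count need not see the deleted part of the gene.

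Imprinted genes are expressed from only 1 of the 2 parental chromosomes, as fixed by DNA methylation laid down in the germ line, and many of them govern fetal growth, placental function and the exit from the cell cycle. Meg3, Rian and Mirg are long non-coding RNAs read from the maternal copy of the Dlk1-Dio3 domain, and Dlk1, a membrane protein related to Notch ligands, is read from its paternal copy. H19 (a maternally expressed non-coding RNA) and Igf2 (the paternally expressed growth factor IGF2) share enhancers on another chromosome. Igf2r is the receptor that clears IGF2, Cdkn1c the cyclin-dependent kinase inhibitor p57, Grb10 an adaptor that dampens insulin and IGF receptor signalling, and Peg3 a paternally expressed zinc finger protein. In most mouse tissues 7 of the 10 genes are expressed from the maternal and 3 from the paternal copy. The counts do not tell the parental copies apart.

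On GRCm38, the build the authors used, Dlk1 lies at chr12:109452823-109463336, Meg3 at chr12:109541001-109571726, Rian at chr12:109603940-109661716 and Mirg at chr12:109729764-109749460, all on the plus strand and 297 kb from the start of Dlk1 to the end of Mirg. H19 (chr7:142575529-142578143) and Igf2 (chr7:142650766-142666816) lie on the minus strand, 72.6 kb apart. The remaining loci, also on the minus strand, are Cdkn1c at chr7:143458339-143461050, Peg3 at chr7:6703892-6730431, Grb10 at chr11:11930508-12038683 and Igf2r at chr17:12682406-12769664. Of the genes that overlap these loci, only Igf2os, Airn and Gm44732 were among the genes counted, so overlaps with the others could not be checked. Igf2os (at Igf2) and Gm44732 (at Cdkn1c) had 0 UMIs in class wells. At Igf2r, the antisense RNA Airn had 6 UMIs there, beside 42 of Igf2r. The strand setting of the counting was not given in the sources used here, so reads of that pair cannot be fully told apart.

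Several of these RNAs are hosts of microRNAs, which act through their seed (bases 2 to 8). On the same strand, the RefSeq table (GRCm38.p6) places 2 miRNA genes within Meg3, 3 within Rian, 14 within Mirg, 1 within H19 and 1 within Igf2. Among the 39 mature miRNAs of these loci there were 38 different seeds. The miRNAs of the 3 hosts whose values the results turn on are shown with the seed in capitals, and none of these 7 shared a seed. SORT-seq counts polyadenylated RNA, so the miRNAs themselves have no values here.
miR-770-5p (Meg3): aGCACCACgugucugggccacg
miR-770-3p (Meg3): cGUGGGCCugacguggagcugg
miR-1906 (Meg3): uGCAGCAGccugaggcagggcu
miR-675-5p (H19): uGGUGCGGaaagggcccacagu
miR-675-3p (H19): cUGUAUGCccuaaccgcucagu
miR-483-5p (Igf2): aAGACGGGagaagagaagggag
miR-483-3p (Igf2): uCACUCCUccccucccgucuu

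Meg3 was the member with the most UMIs in class wells, and its promoter is shown because its level was higher in pericyte than in endothelial wells in all 3 plates that held both. Of 2 RefSeq windows for Meg3, the one around the start of the gene (chr12:109540746-109541045, plus strand, GRCm38.p6, 250 bases before to 50 from the start on) was searched on both strands for the TATA box TATAAA, the cAMP response element TGACGTCA, the GC box GGGCGG and the E-box CACGTG. Capitals mark the matches, and the TATA matches on the 2 strands overlap.
Meg3: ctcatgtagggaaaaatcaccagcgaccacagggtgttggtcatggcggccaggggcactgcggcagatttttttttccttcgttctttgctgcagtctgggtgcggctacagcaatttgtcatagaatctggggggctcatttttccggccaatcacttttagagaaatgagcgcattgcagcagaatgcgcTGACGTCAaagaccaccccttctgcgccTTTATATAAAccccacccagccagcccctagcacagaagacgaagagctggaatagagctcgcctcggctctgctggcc
The cAMP response element matched from base -57 to -50 and TATAAA from base -25 to -20 of the start. The other Meg3 window (chr12:109545148-109545447) held none of these letters. Among 32851 windows of this length in the table, TGACGTCA was found in 1.79%, TATAAA in 13.6%, GGGCGG in 35.7% and CACGTG in 7.15%. Of 13 windows of 8 of the genes, 1 held TATAAA, 2 held TGACGTCA (Meg3 and Peg3), 4 held GGGCGG and 1 held CACGTG. These matches describe letters and are not evidence of binding.

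Meg3 was abundant in pericytes and nearly absent from endothelial cells. The 21 pericyte wells held 226 Meg3 UMIs, or 28.1 per 10000 (24.5 to 32.0), and the 11 endothelial wells held 1, or 0.322 per 10000 (0.00815 to 1.79). Among pericyte wells, fl/fl replicate 1 had 58 UMIs (32.2 per 10000), fl/fl replicate 2 had 39 (27.7) and dEC/dEC replicate 2 had 129 (26.7). The endothelial wells of fl/fl replicate 1, where pericyte markers were also highest, had 1 UMI and those of the other 3 plates had 0. Every pericyte sum lay above every endothelial sum, and the counting intervals of the 3 pericyte plates overlapped. Single wells varied more than the plates did: fl/fl replicate 1 ranged from 15.3 to 58.2 per 10000 with a median of 29.8, fl/fl replicate 2 from 13.2 to 49.0 with a median of 19.6, and dEC/dEC replicate 2 from 0 to 44.7 with a median of 26.5. Meg3 was detected in 19 of 21 pericyte wells (90.5%) and 1 of 11 endothelial wells (9.09%), at median depths of 3750 and 3020 UMIs. The share in endothelial wells was close to the 9.13% of wells under 1000 UMIs that held a Meg3 UMI, at a median depth of 127. With every class well thinned to 1000 UMIs (no well was left out), the shares were 82.4% and 2.73%.

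**Figure D1:**
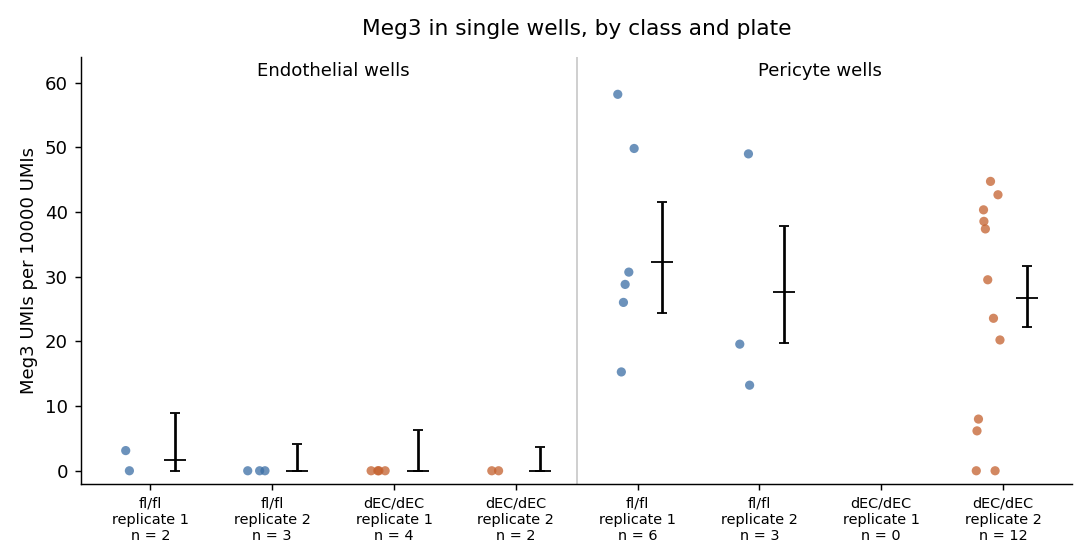
Meg3 UMIs per 10000 UMIs in each endothelial and pericyte well (points, fl/fl in blue and dEC/dEC in orange) by plate, with n wells; the bar beside the points is the pooled level with its exact 95% Poisson interval. Pericyte plates sit at 26.7 to 32.2, and only 1 of 11 endothelial wells held a Meg3 UMI.

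UMIs were summed per class and plate (4 endothelial and 3 pericyte sums) and compared by edgeR's quasi-likelihood test over 148 genes that passed its filter. Of the 10 imprinted genes only Meg3 passed that filter, and it was among the genes called at a Benjamini-Hochberg adjusted p under 0.05, with a log2 fold change of 6.54 ± 0.61 (SE) for pericyte over endothelial wells. The ratio of the pooled UMIs was 6.45 on the log2 scale (3.95 to 11.76). In this comparison 24.3% of the genes tested were called higher in pericytes and 10.1% higher in endothelial cells. With library size as the only scaling, 25 genes were called higher in pericytes and 40 in endothelial cells, in place of 36 and 15, the median log2 fold change of all tested genes moved from -0.02 to -0.35, and Meg3 stood at 6.25. Because Meg3 was named with these results known, nothing is read from its call. Over the 7 class and plate sums, the genes most like Meg3 of 616 with at least 30 UMIs, by Pearson's r of log2(UMIs per 10000 + 1), included Col3a1 (r = 0.99), a fibrillar collagen, and Aspn, Cryab and Ogn (each r = 0.98). Aspn and Ogn encode small leucine-rich proteoglycans and Cryab a small heat shock protein. These sums share plates and split into a high and a low class, so a high r is shared by many genes that differ between the classes.

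Wells outside the classes also held Meg3. The 8 wells over 8000 UMIs with pericyte markers had 12 to 37 Meg3 UMIs each, or 29.4 per 10000 in all (25.5 to 33.7). The 3 wells with both markers had 11, 19 and 33 UMIs, or 42.9 per 10000 in all (32.9 to 54.8). Singly they ranged from 21.6 to 55.2 per 10000, within the range of single pericyte wells. The 7 wells with neither marker had 0 to 5 UMIs, with a median of 0. The 3 wells over 8000 UMIs with neither marker had 3 to 5, or 4.94 per 10000 (2.63 to 8.45), below the pericyte wells and above the endothelial wells.

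Among class wells, the maternal neighbours of Meg3 and the paternal Dlk1 had UMIs in pericyte wells only. Rian had 5, 3 and 9 UMIs in fl/fl replicates 1 and 2 and dEC/dEC replicate 2, or 2.11 per 10000 over all pericyte wells (1.23 to 3.38). Mirg had 1, 1 and 7 UMIs, or 1.12 per 10000 (0.511 to 2.12), at most 1 per well. Dlk1 had 13, 3 and 10 UMIs, or 3.23 per 10000 (2.11 to 4.73). All 3 genes had 0 UMIs in the 31048 UMIs of the endothelial wells, for which a floor of 3 counts over the class is 0.966 per 10000 and the exact upper limit 1.19. Against that floor Rian was at least 2.19-fold and Dlk1 at least 3.34-fold higher in pericytes. With the counting error of both classes the exact lower limits were smaller, at 1.59-fold and 2.53-fold, while the 9 Mirg UMIs left equal levels within the counting interval. The 3 genes were found in 9, 9 and 12 of 21 pericyte wells. Of the 26 Dlk1 UMIs, 8 came from 1 well of fl/fl replicate 1, which also held 8 of the 33 Cdkn1c UMIs.

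Among the growth regulators, the receptor and the cell cycle inhibitor were also higher in pericyte wells. Igf2r had 12, 8 and 20 UMIs in the pericyte wells of fl/fl replicates 1 and 2 and dEC/dEC replicate 2, or 4.97 per 10000 (3.55 to 6.77). In endothelial wells it had 1 UMI in each fl/fl plate and 0 in both dEC/dEC plates, or 0.644 per 10000 (0.0780 to 2.33). The log2 ratio of pooled UMIs was 2.95 (1.0 to 6.04), and Igf2r was detected in 16 of 21 pericyte wells. Cdkn1c had 9, 2 and 22 UMIs in the same pericyte plates, or 4.10 per 10000 (2.82 to 5.76), and 1 UMI in endothelial wells, for a log2 ratio of 3.67 (1.09 to 9.02). In fl/fl replicate 1, 88.9% of the Cdkn1c UMIs came from 1 well.

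H19, Igf2, Grb10 and Peg3 gave no difference between the classes beyond counting error. H19 had 1, 3, 1 and 5 UMIs in the endothelial wells of fl/fl replicates 1 and 2 and dEC/dEC replicates 1 and 2, and 3, 7 and 10 in the pericyte wells of the 3 plates that held any. Its levels were 3.22 per 10000 (1.54 to 5.92) in endothelial and 2.49 (1.52 to 3.84) in pericyte wells, a log2 ratio of -0.37 (-1.54 to 0.88) for pericyte over endothelial wells. Igf2 had 1, 3, 2 and 2 UMIs in endothelial and 3, 6 and 6 in pericyte wells, a log2 ratio of -0.47 (-1.80 to 0.98). Grb10 had 3, 1, 1 and 2 UMIs in endothelial and 3, 3 and 16 in pericyte wells, a log2 ratio of 0.28 (-1.0 to 1.75). Peg3 had 3 UMIs in endothelial and 5 in pericyte wells, a log2 ratio of -0.64 (-3.00 to 2.05). In all, the counting interval excluded equal levels for 5 of the 10 genes, all higher in pericyte wells. By the same rule, 6.72% of 5106 genes with more than 3 UMIs in either class were higher in pericyte wells and 10% (512 genes) higher in endothelial wells. The 10 genes were chosen with these values known, and nothing is read from the count.

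**Figure D2:**
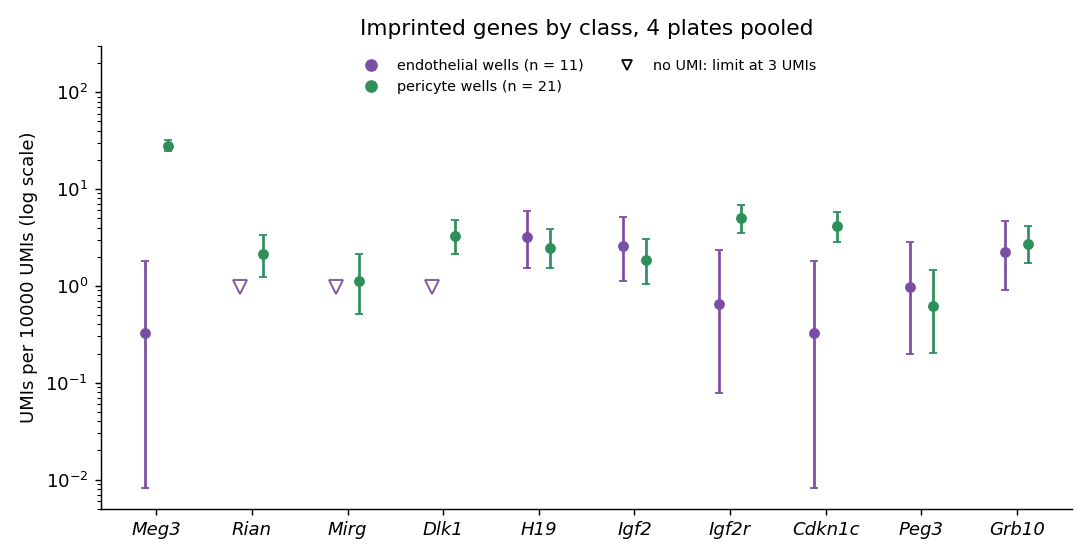
UMIs per 10000 UMIs (log scale) of the 10 imprinted genes over the 11 endothelial wells (purple) and 21 pericyte wells (green), pooled over plates; bars are exact 95% Poisson intervals and open triangles mark genes with no UMI, at the level 3 UMIs would give. Meg3 stands at 28.1 in pericyte wells, and the intervals of the 2 classes overlap widely for H19, Igf2, Peg3 and Grb10.

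Other imprinted genes and the IGF pathway were followed with lists of 46 and 22 genes. Of the 46 other imprinted genes, 27 had UMIs in class wells and only Gnas, which encodes a stimulatory G protein subunit, passed the filter of the class comparison. Gnas was higher in pericyte wells, with a log2 fold change of 0.75 ± 0.29 (SE) and an adjusted p of 0.0277 by edgeR's quasi-likelihood test with Benjamini-Hochberg adjustment. That call was lost in 10 of 15 alternatives, with adjusted p from 0.00771 to 0.556, and with plate as a replicate block it stood at 0.0874. The ratio of pooled UMIs was 0.31 (-0.09 to 0.73), which includes equal levels. In endothelial wells Gnas stood at 29.6 per 10000 in fl/fl and 14.5 in dEC/dEC, and in pericyte wells at 28.7 and 26.3, so the class difference lay in the dEC/dEC suspension. Of the others with the most UMIs, Cd81 had 74 UMIs in pericyte and 20 in endothelial wells, Ube3a 33 and 4, Kcnq1ot1 21 and 1, Mest 16 and 8, Nap1l4 10 and 9, Osbpl5 7 and 0, Trappc9 6 and 1, and Ndn 6 and 3. By counting intervals, Ube3a (a ubiquitin ligase) and Kcnq1ot1 (the non-coding RNA of the domain that holds Cdkn1c) were higher in pericyte wells, with log2 ratios of 1.67 (0.18 to 3.63) and 3.02 (0.38 to 8.39). None was higher in endothelial wells, and 14 of 16 with more than 3 UMIs included equal levels. Over all 5106 genes with more than 3 UMIs in either class, 343 were higher in pericyte wells and 512 in endothelial wells. Whether the list differed from those genes was not tested.

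In the IGF and insulin list, the ligand Igf1 and most adaptors had few UMIs, and the binding proteins Igfbp7 and Igfbp4 had the most. Only Igfbp7, a secreted IGF binding protein, passed the filter of the class comparison, with 450 UMIs in pericyte and 157 in endothelial wells. Its log2 fold change was 0.51 ± 0.28 (SE), and its adjusted p was 0.151 by edgeR's quasi-likelihood test with Benjamini-Hochberg adjustment and 0.0319 with plate as a replicate block. Of 15 alternatives only 1, that block, passed, and the highest adjusted p was 0.724. In endothelial wells Igfbp7 stood at 39.5 per 10000 in fl/fl and 61.1 in dEC/dEC, and in pericyte wells at 52.3 and 58.3. The order of the classes thus differed between the suspensions by these point values, which were close in dEC/dEC. No interval was computed for the class difference within a suspension. Igfbp4 had 51 and 20 UMIs, which left equal levels within its interval. Igfbp3 had 0 UMIs in pericyte and 13 in endothelial wells and was at least 11.2-fold higher in endothelial wells against the floor of 3 counts, with an exact lower limit of 7.90-fold. Igfbp5 (2 and 7 UMIs) and the insulin receptor Insr (2 and 6) were also higher in endothelial wells, with log2 ratios of -3.18 (-6.48 to -0.79) and -2.96 (-6.30 to -0.48) for pericyte over endothelial wells. All 7 endothelial Igfbp5 UMIs came from fl/fl and all 6 of Insr from dEC/dEC wells, so each difference rests on 1 suspension. Stc1, a secreted glycoprotein, was higher in pericyte wells with 22 and 2 UMIs, a log2 ratio of 2.09 (0.06 to 5.22). Igf1r had 12 and 6 UMIs and Shc1 11 and 3, and both included equal levels. Of the other inhibitors of the p57 family, Cdkn1b had 6 UMIs in pericyte and 2 in endothelial wells and Cdkn1a had none.

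Between genotypes, the counting interval of Meg3 in pericytes included equal levels. The fl/fl pericyte wells held 97 Meg3 UMIs, or 30.2 per 10000 (24.5 to 36.9), and the dEC/dEC pericyte wells 129, or 26.7 (22.3 to 31.7). The log2 ratio of fl/fl over dEC/dEC was 0.18 (-0.22 to 0.57), and it lay between -0.04 and 0.52 in all 12 alternatives. With classes from the marker lists, where the genotypes held 160 and 130 UMIs, it was 0.45 (0.11 to 0.80) and its interval excluded equal levels. The 2 fl/fl plates, at 32.2 and 27.7, lay on either side of 30.2 and both above the dEC/dEC plate. Both pericyte wells without a Meg3 UMI were dEC/dEC wells.

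Of the 9 imprinted genes with more than 3 UMIs in either genotype's pericyte wells, 1 had a counting interval that excluded equal levels, where 3.39% of 3684 genes were higher in fl/fl and 2.28% in dEC/dEC wells. Dlk1 had 16 UMIs in fl/fl pericyte wells (13 and 3 in replicates 1 and 2) and 10 in dEC/dEC wells, a log2 ratio of 1.27 (0.04 to 2.57). Without fl/fl replicate 1, which held the well with 8 UMIs, the ratio was 0.04 (-2.46 to 2.0), so it rests on that plate. The interval also included 0 with a lower UMI limit for wells (1.05), a mitochondrial share under 5% (1.33) and classes from the marker lists (1.0). Igf2r had 20 UMIs in each genotype, or 6.23 and 4.14 per 10000, a log2 ratio of 0.59 (-0.38 to 1.56). The antisense Airn, whose reads cannot be fully told apart from those of Igf2r, had 6 UMIs in fl/fl and 0 in dEC/dEC pericyte wells. Cdkn1c had 11 in fl/fl and 22 in dEC/dEC wells, a log2 ratio of -0.41 (-1.60 to 0.70), which was -1.68 without fl/fl replicate 1, 0.13 without fl/fl replicate 2 and 0.32 without wells that share a deep barcode. For Grb10, with 6 and 16 UMIs, the ratio was -0.82 (-2.47 to 0.60). H19 (10 and 10 UMIs), Igf2 (9 and 6), Rian (8 and 9) and Mirg (2 and 7) had log2 ratios of 0.59, 1.18, 0.42 and -1.22, each with an interval of more than 2 log2 units that included 0. Without the upper limit of 8000 UMIs, the Igf2 ratio was 1.31 (0.21 to 2.47), and 0.79 (-0.50 to 2.07) when 1 fl/fl well with 8 UMIs was also left out. Peg3 had 3 and 2 UMIs and no ratio is given.

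**Figure D3:**
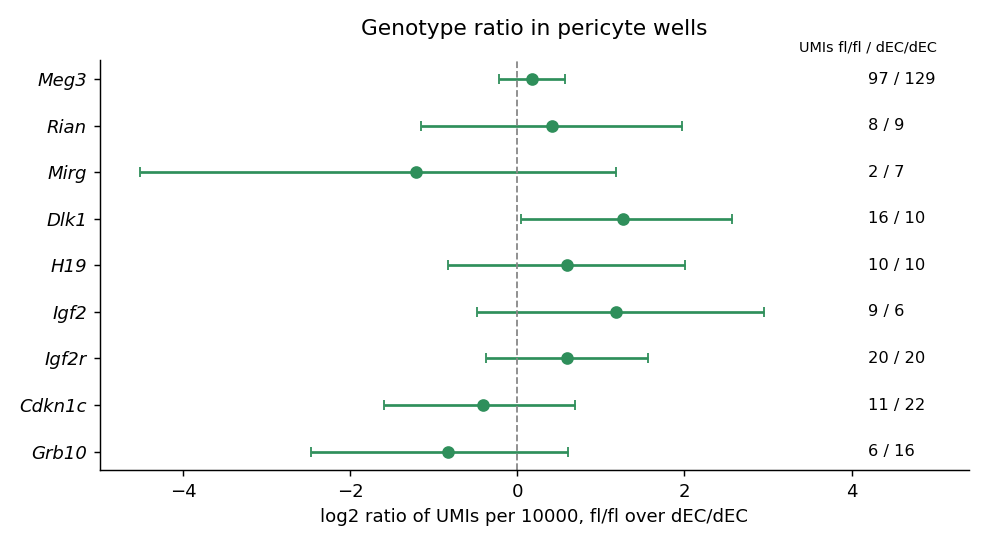
Log2 ratio of UMIs per 10000, fl/fl over dEC/dEC, in pericyte wells (9 fl/fl and 12 dEC/dEC wells) for the 9 genes with more than 3 UMIs in either genotype; bars are exact 95% conditional intervals for counting error only, and the numbers are UMIs in each genotype. All intervals but that of Dlk1 (0.04 to 2.57) include 0.

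In endothelial wells the genotypes could hardly be compared at this depth. Only H19, Igf2 and Grb10 had more than 3 UMIs in either genotype, and all 3 intervals included equal levels, where 3.31% of 1422 genes were higher in fl/fl and 5.06% in dEC/dEC wells. H19 counted 4 UMIs in fl/fl and 6 in dEC/dEC wells, with a log2 ratio of -0.52 (-2.79 to 1.55). The log2 ratio was 0.06 (-2.36 to 2.49) for Igf2, with 4 UMIs in each genotype, and for Grb10, with 4 and 3, it was 0.48 (-2.09 to 3.25). Rian, Mirg and Dlk1 had no UMI in either genotype, for which 3 counts would be 1.98 per 10000 in fl/fl and 1.89 in dEC/dEC endothelial wells.

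H19 and Igf2 had far more UMIs in wells under 1000 UMIs than in class wells. By share of UMIs, 6 of the 10 members were higher under 1000 UMIs beyond counting error, Meg3 was lower and Rian, Mirg and Igf2r included equal shares. By the same rule, 8.51% of 8437 genes had a higher share there and 18.7% a higher share in class wells. The members were chosen with these levels known, and nothing is read from the count. The 1478 wells under 1000 UMIs held 225601 UMIs of mouse genes, of which 1264 were H19 and 1062 Igf2. By plate, fl/fl replicate 1 had 379 H19 UMIs (60.0 per 10000), fl/fl replicate 2 had 367 (56.4), dEC/dEC replicate 1 had 222 (60.8) and dEC/dEC replicate 2 had 296 (48.6). Igf2 stood at 48.5, 48.9, 48.8 and 42.7 per 10000 in the same order. Both genes were present in all 4 plates, in both genotypes and both gates, with the lowest level in dEC/dEC replicate 2. Their share of UMIs was 20.8-fold (14.5 to 31.0) and 22.8-fold (15.1 to 36.2) that in class wells. Peg3, with 161 UMIs under 1000 UMIs and 8 in class wells, had a 9.95-fold share, Dlk1 (286 and 26) a 5.44-fold Grb10 (173 and 29) a 2.95-fold and Cdkn1c (113 and 34) a 1.64-fold share, while that of Meg3 (163 and 227) was 0.355-fold. H19 exceeded Igf2 by 1.19-fold (1.10 to 1.29) over these wells, with 1.14 to 1.25 in single plates, and by 1.25-fold (0.444 to 3.64) in endothelial and 1.33-fold (0.649 to 2.80) in pericyte wells.

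Counted per well and not per UMI, H19 and Igf2 differed between class wells and wells under 1000 UMIs by less than counting error. Wells under 1000 UMIs held 0.855 H19 UMIs each (0.809 to 0.904), endothelial wells 0.909 (0.436 to 1.67) and pericyte wells 0.952 (0.582 to 1.47). Igf2 stood at 0.719 (0.676 to 0.763), 0.727 (0.314 to 1.43) and 0.714 (0.400 to 1.18). The share of wells with an H19 UMI was 48.2% under 1000 UMIs at a median depth of 127, 45.5% in endothelial and 57.1% in pericyte wells. H19 in the classes did not exceed its level in these shallow wells beyond counting error, so its detection there is not read as expression by the cell. The same holds for Igf2, found in 44.0%, 45.5% and 38.1% of the wells. The shallow wells were not free of vessel RNA: all 15 pericyte markers were detected there, at 111 UMIs per 10000 with 1042 UMIs of Rgs5, and the source of their RNA was not tested. Peg3, with 0.109 UMIs per well under 1000 UMIs (0.0928 to 0.127) and 0.238 (0.0773 to 0.556) in pericyte wells, was also within its counting error. In the 8 wells over 8000 UMIs with pericyte markers, H19 had 0.500 UMIs per well (0.136 to 1.28), and Igf2, at 2.12 (1.24 to 3.40), lay above its level under 1000 UMIs. Of these 17 Igf2 UMIs 8 came from 1 well of fl/fl replicate 2, and without it the level was 1.29 (0.588 to 2.44), an interval that includes 0.719.

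Counted per well, Meg3, Igf2r, Cdkn1c, Dlk1, Rian and Mirg had more UMIs in pericyte wells than in the far shallower wells under 1000 UMIs. Meg3 had 10.8 UMIs per pericyte well (9.40 to 12.3) against 0.110 (0.0940 to 0.129). Igf2r had 1.90 (1.36 to 2.59) against 0.0616, Cdkn1c 1.57 (1.08 to 2.21) against 0.0765, Dlk1 1.24 (0.809 to 1.81) against 0.194, Rian 0.810 (0.472 to 1.30) against 0.0142 and Mirg 0.429 (0.196 to 0.814) against 0.00947. As a share of UMIs the order differed between genes: per 10000, Meg3 stood at 28.1 in pericyte wells and 7.23 under 1000 UMIs and Igf2r at 4.97 and 4.03, but Cdkn1c at 4.10 and 5.01 and Dlk1 at 3.23 and 12.7. Per well, Grb10 exceeded its 0.117 in both classes, with 1.05 (0.657 to 1.59) in pericyte and 0.636 (0.256 to 1.31) in endothelial wells. In endothelial wells Meg3 stood at 0.0909 (0.00230 to 0.507), which includes its level in the wells under 1000 UMIs.

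**Figure D4:**
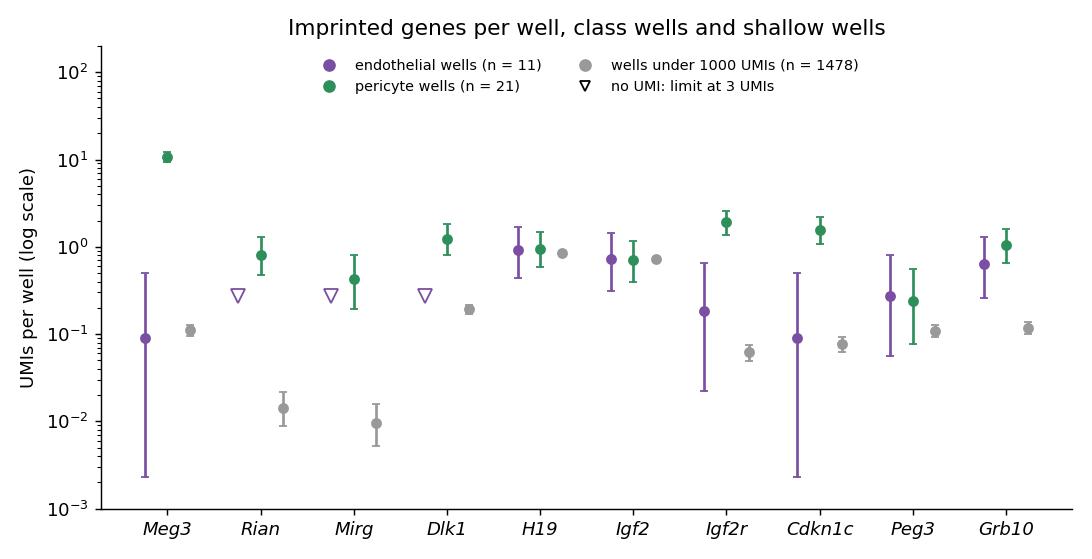
UMIs per well (log scale) of the 10 imprinted genes in endothelial wells (purple), pericyte wells (green) and the 1478 wells under 1000 UMIs (grey); bars are exact 95% Poisson intervals and open triangles mark genes with no UMI, at the level 3 UMIs would give. H19 and Igf2 lie at the same height in all 3 kinds of well, while Meg3 is at 10.8 in pericyte wells and 0.110 in wells under 1000 UMIs.

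Other RNAs also differed in their share of UMIs under 1000 UMIs, some of them upwards and some downwards. By counting intervals, 8.51% of 8437 genes had a higher share there and 18.7% a higher share in class wells. The erythroid markers summed to 172 UMIs per 10000 under 1000 UMIs, 76.7 in endothelial and 5.22 in pericyte wells, and all 8 were detected under 1000 UMIs. Hba-a1 was the most abundant of them there with 1327 UMIs, and the embryonic globins Hbb-bh1 and Hbb-y had 1290 and 659, or 57.2 and 29.2 per 10000, against 1.70 and 0.538 in class wells. Of the 8 erythroid genes, 5 had a higher and 1 a lower share of UMIs under 1000 UMIs beyond counting error: the adult globin Hbb-bs stood at 3.46 per 10000 there and 6.73 in class wells. Of the erythroid marker UMIs in endothelial wells, 233 of 238 lay in fl/fl replicate 2. Of the 28 other imprinted genes with more than 3 UMIs in either set, 11 had a higher and 4 a lower share under 1000 UMIs. Of those with a higher share, chosen here after their values were seen, Peg10 had 113 UMIs under 1000 UMIs and 1 in class wells, Nnat 100 and 6, Plagl1 87 and 5, Mest 91 and 24, and Gnas 884 and 287. Those with a lower share were Cd81 (80 and 94 UMIs), Ube3a (46 and 37), Nap1l4 (13 and 19) and Trappc9 (3 and 7). Of the 13 genes of the IGF and insulin list with more than 3 UMIs in either set, 5 had a higher and 5 a lower share there. Those with a lower share were Igfbp3, Igfbp7, Insr, Shc1 and Stc1. The fetal IGF2 mRNA binding proteins Igf2bp1, Igf2bp2 and Igf2bp3 had 33, 20 and 42 UMIs under 1000 UMIs and 6, 3 and 3 in class wells. The interval of Igf2bp2 included equal shares. The part of these RNAs in the H19 and Igf2 values was not tested.

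The H19 UMIs under 1000 UMIs followed the barcode across plates. Over the 337 barcodes whose wells were under 1000 UMIs in all 4 plates, the UMIs of a barcode in 1 plate were compared with those in another plate, for 6 pairs of plates. Pearson's r was 0.34 to 0.48 for H19 (Spearman's rho 0.26 to 0.43), 0.24 to 0.37 for Igf2 and 0.12 to 0.34 for Dlk1. It was 0.01 to 0.28 for Igf2r, 0.01 to 0.20 for Grb10 and 0.05 to 0.13 for Cdkn1c. For Rian, Mirg, Meg3 and Peg3 it was -0.01 to 0.19, -0.01 to 0.23, -0.07 to 0.13 and -0.01 to 0.08. It was 0.92 to 0.94 for Hbb-bh1, 0.77 to 0.87 for Hbb-y, 0.54 to 0.78 for all UMIs of mouse genes and 0.39 to 0.48 for spike-in RNA. As a share of each well's UMIs, r was 0.16 to 0.33 for H19 and 0.15 to 0.26 for Igf2. Low counts limit r for the rarer genes, and wells with the same barcode share its primer and its place on the plate, so these values are a description. Whether reads were carried over or shared between plates of the same barcodes was not tested, and the per-well, plate and genotype values of H19, Igf2 and the embryonic globins hold only within that limit. Plates of different genotypes were no exception: with the UMIs of both plates of a genotype added, r between fl/fl and dEC/dEC was 0.61 for H19 and 0.49 for Igf2. In the barcode with the most H19, fl/fl replicates 1 and 2 had 10 and 8 UMIs and dEC/dEC replicates 1 and 2 had 7 and 4, in wells of 223, 253, 126 and 239 UMIs. H19 was found in all 4 plates for 52 of the 337 barcodes and in none for 58, and Igf2 for 35 and 74.

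**Figure D5:**
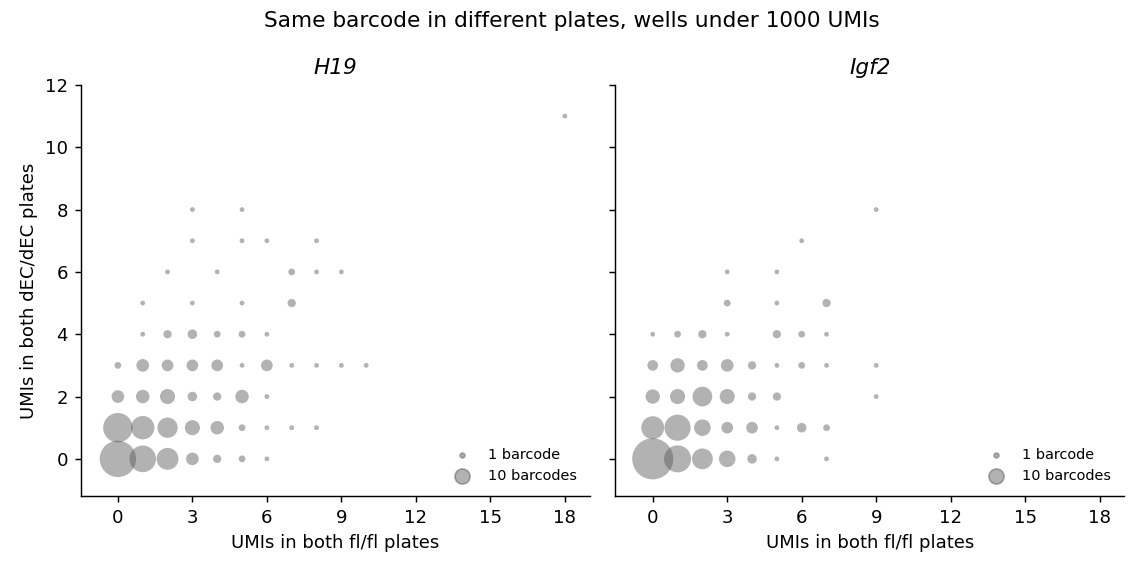
UMIs of H19 (left) and Igf2 (right) in both fl/fl plates against both dEC/dEC plates for the 337 barcodes with under 1000 UMIs in all 4 plates; the area of a point gives the number of barcodes. Barcodes rich in H19 in the fl/fl plates were rich in the dEC/dEC plates (r = 0.61), up to 18 and 11 UMIs in 1 barcode.

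The same comparison was made for the barcodes of class wells, for which 82 wells under 1000 UMIs in other plates carried the barcode of 31 class wells. For H19 the class wells held 0.903 UMIs each (0.600 to 1.31) and the other wells of the same barcodes 0.707 (0.537 to 0.914). For Igf2 the values were 0.645 (0.394 to 0.996) and 0.695 (0.526 to 0.901). Meg3 stood at 9.95 (8.62 to 11.4) in 20 pericyte wells and at 0.434 (0.275 to 0.651) in the 53 other wells of their barcodes, which is above the 0.110 over all wells under 1000 UMIs. The other wells of the endothelial barcodes, at 0.414 (0.214 to 0.723), were also above that level. Without the class wells whose barcode held at least 1000 UMIs in another plate, Meg3 stood at 22.3 per 10000 in 14 pericyte wells and at 0 in 8 endothelial wells.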

How the data were processed

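The authors sorted cells into 4 plates of 384 wells, mapped and counted the reads with STARsolo 2.7.11b on GRCm38 (tool and build per the labels) and deposited, for every gene in each well, UMIs as estimated counts, of which 5.48% were not whole and were rounded here. No column was left unmapped. Spike-ins were left out of all totals. Wells were kept at 1000 to 8000 UMIs after scaling plates to the highest plate median (factors 1.11, 1, 1.93 and 1.08) and a share of the 13 mitochondrial genes under 10%. No doublet caller was run, and wells with both markers were left out of the classes. The members and lists were chosen with earlier results of these data known. Levels are UMIs per 10000 with exact 95% Poisson intervals. Ratios have exact conditional binomial intervals, and a gene at 0 was set to 3 counts over the group for bounds. Intervals cover counting error only.

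Class sums per plate were compared with edgeR 4.0.16 (quasi-likelihood, TMM, filterByExpr) in R 4.3.3, with DESeq2 1.42.0 as an alternative, after a test on simulated data. Plates are separate libraries of pooled suspensions, so their spread may be technical. Named genes were the 10 members and, per list, every gene past an adjusted p of 0.05 and up to 8 others with the most UMIs. The 5 genes most like Meg3 were also to be named, and 1 of them is not reported here. Alternatives covered well limits, classes, scaling, tools and leaving out each plate. Sequences and promoter windows came from RefSeq tables (GRCm38.p6), which held promoters of 8 of the 10 members.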

Additional observations from a re-analysis of the deposited data

Results flagged for a closer look

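Of 17 groups of 4 plates in which the highest or lowest plate was compared with the others by Dixon's ratio, 3 had a plate far from the rest, and chance gives about 1 such group in 20 where values can vary freely. With 3 plates at 0 and 1 UMI in the other, as for Meg3 and Cdkn1c, the ratio is at its highest by construction, so that rate does not apply. Meg3 in endothelial wells stood at 1.61 UMIs per 10000 in fl/fl replicate 1, from 1 UMI, and at 0 in the other 3 plates. Cdkn1c in endothelial wells stood at 1.69 per 10000 in dEC/dEC replicate 1, also from 1 UMI, and at 0 in the other 3 plates. Igf2 in wells under 1000 UMIs stood at 42.7 per 10000 (260 UMIs) in dEC/dEC replicate 2. In the other plates it stood at 48.5, 48.9 and 48.8 (306, 318 and 178 UMIs). Dixon's ratio takes no account of counting error, so this flag does not show a difference beyond it.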

How the results depend on the processing

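Each genotype was 1 pooled suspension, dEC/dEC pericytes came from 1 plate, and most members had under 50 UMIs, so differences smaller than the intervals given were not detectable at this depth. The fitted log2 fold change of Meg3 was 5.73 to 9.04 under 15 alternatives (6.13 to 8.69 when a plate was left out). Nothing is read from its call, and where no endothelial UMI was left (classes from marker lists, without fl/fl replicate 1, without wells that share a deep barcode) the fold depends on the prior count and is no measured value. Genes called higher in pericytes numbered 36, against 188 without a filter on low counts, 58 with classes from marker lists, 15 without wells that share a deep barcode and 24 to 38 when a plate was left out. Genes called higher in endothelial wells numbered 15, against 9 with DESeq2, 40 with library size only, 50 without a filter, 38 with classes from marker lists, 8 without wells that share a deep barcode and 8 to 20 when a plate was left out. The Meg3 level in endothelial wells was 0 with classes from marker lists and without wells that share a deep barcode, and 0 to 0.474 per 10000 when a plate was left out. Its highest value over 11 alternatives was 0.621, from 2 UMIs without the mitochondrial limit. In pericyte wells it was 22.3 without wells that share a deep barcode and 26.9 to 30.2 when a plate was left out. Wells under the limit held 0.800 to 0.945 H19 and 0.671 to 0.801 Igf2 UMIs each when a plate was left out. The Meg3 ratio between genotypes was 0.05 to 0.27 on the log2 scale when a plate was left out. The pooled class ratios other than the fitted fold changes had no alternatives run. The fit without a filter on low counts gave H19, Igf2 and Peg3 log2 fold changes of 0.54, 0.48 and 0.29. Their pooled ratios were negative, and the median of all genes in that fit was 1.15. Of the listed genes outside the members with a difference by counting interval, Igfbp3 had an adjusted p under 0.05 there. Ube3a, Kcnq1ot1, Stc1, Igfbp5 and Insr had 0.0935 to 0.572 (edgeR's quasi-likelihood test, Benjamini-Hochberg). The Dlk1 ratio between genotypes kept its sign. Among ratios between genotypes whose interval included equal levels, those of Meg3, Rian, H19, Igf2r and Cdkn1c in pericyte wells and of H19, Igf2 and Grb10 in endothelial wells changed sign under some alternative. The causes of these shifts were not tested.

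With plate as a replicate block, 32 genes were called higher in pericytes and 14 in endothelial wells, and the log2 fold change of Meg3 was 6.28 ± 0.65 (SE). Deviations of the endothelial and pericyte sums of a plate correlated across 148 genes at -0.04 in fl/fl replicate 1, 0.06 in fl/fl replicate 2 and 0.07 in dEC/dEC replicate 2. Plates of the genotypes with the same number share a sort gate and no suspension, and no paired analysis of them was run. Each genotype was 1 suspension, and dEC/dEC replicate 1 held no pericyte well.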
